A study of Macaca mulatta with 22 samples.

Results

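Mid-gene m6A peaks that span exon junctions are peaks whose midpoint lies between 20% and 80% of the way along their gene and whose sequence is split into at least 2 exonic blocks. They were chosen by position and block number alone, from genes of at least 400 bp outside the mitochondrial genome, and only where the gene in which a peak was called was also the annotated gene. Of 10069 peaks in 11 prefrontal cortex samples, 9215 could be placed on a gene in this way, 3330 were mid-gene, and 1764 of those spanned a junction. The 1764 peaks lay in 1049 of the 3671 genes with any peak. They made up 53.0% of mid-gene peaks and 19.1% of placed peaks, and 1566 mid-gene peaks lay within 1 block.

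N6-methyladenosine (m6A) is the most common internal modification of mRNA. It is written in the nucleus, by a complex around METTL3 and METTL14, and read by proteins that influence splicing, export, translation and decay. Long internal exons and the last exon, around the stop codon, are where m6A is best known. Exon junction complexes, deposited near splice junctions, are known to keep the writer away from short internal exons. In m6A-seq an antibody pulls down RNA fragments that hold the mark, so a peak is a stretch longer than the modified base. A peak called on spliced exons can therefore continue from one exon into the next, with the intron left out as a gap between blocks.

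Prefrontal cortex was taken from 11 rhesus macaque infants (Macaca mulatta) on postnatal day 35. The treated group held D and S1 (male) and F, S2 and S3 (female), 5 animals that had inhaled about 2.5 to 3% sevoflurane, a volatile general anaesthetic, for 4 h on each of about postnatal days 7, 21 and 35. The 6 controls, of which A and B were male and C, C1, C2, C3 female, are labelled only as controls. What they received on those days is not given in the sources used here. RNA came from the whole prefrontal cortex and about 20 µg of total RNA entered each preparation. With bulk tissue, fewer cells of a type and less RNA per cell cannot be told apart. A peak can also come or go with the RNA level of its gene, which was not analysed here. Read depth is unknown, since the tables hold no totals. Lists ran from 452 to 1673 peaks, and C1 had the shortest and S2 the longest.

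The blocks show what these peaks look like on the gene. Of the 1764 peaks, 1251 (70.9%) joined 2 blocks, 379 (21.5%) joined 3, and 134 joined 4 or more, up to 8. Their exonic length, the sum of the blocks, had a median of 150 bp and quartiles of 120 and 181 bp, while on the genome they stretched over a median of 1739 bp. Exonic lengths fell on steps of about 30 bp. In most peaks the blocks were unequal. The largest block held a median of 66.7% of the exonic bases, and the smallest block had a median of 30 bp. In 273 peaks (15.5%) the smallest block was under 10 bp, and in 24 it was 1 bp, so that a junction was crossed only at the edge of the peak. Exons that lay whole inside a peak, 457 distinct ones, were short, with a median of 76 bp and quartiles of 54 and 104 bp. Only 7 of them exceeded 200 bp. An exon inside a peak cannot be longer than the peak, so their short length is largely set by peak length. They were not compared with other exons.

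The gaps between blocks were mostly of intron size. There were 1692 distinct gaps, with a median of 1192 bp and quartiles of 320 and 3421 bp. Few gaps were shorter than 75 bp, with 27 under 30 bp and 25 from 30 to 74 bp, against 107 from 75 to 99 bp. A gap under 30 bp is too short for a spliced intron by general knowledge, so the label of a junction does not hold for the 32 peaks (1.81%) in 12 genes that had no other gap. The gap of HNRNPA0, an RNA-binding protein of the hnRNP A/B family, was 18 bp and was present in all 11 animals. LMTK3, a kinase-like membrane protein, also had a gap of 18 bp, in 7 animals. At the other end, 147 gaps exceeded 10 kb. The longest, 163877 bp, lay in FBXL17, the substrate-binding subunit of a ubiquitin ligase, in C3 alone, and joined blocks with 90 bp of exonic sequence in all.

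**Figure D1:**
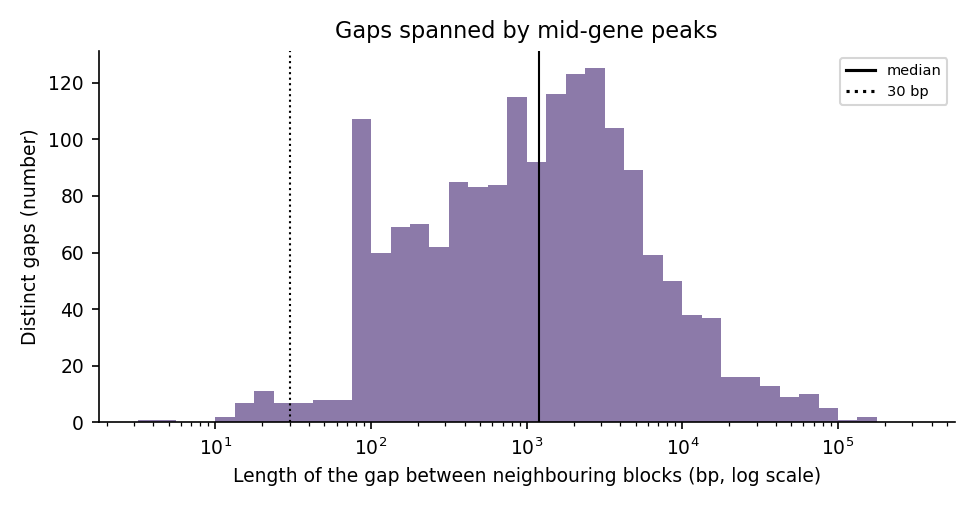
Length in bp, on a log axis, of the 1692 distinct gaps between neighbouring blocks of junction-spanning mid-gene peaks, as a histogram of their number. The solid line marks the median of 1192 bp and the dotted line 30 bp. Counts rise sharply from 75 bp upward, and 27 gaps lie below 30 bp.

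Since the midpoint was taken on the genome, it fell inside a gap in 1647 of the peaks (93.4%). By the midpoint of the exonic bases, 193 peaks (10.9%) would lie outside the mid-gene window, 135 of them before 20% and 58 at or beyond 80%. UBE2K, a ubiquitin-conjugating enzyme, is such a gene: its blocks lay on both sides of a gap of 38479 bp in 9 animals. A further 64 peaks reached past the annotated end of their gene, as those of TSPYL1 did. At the edges of the window, the nearest multi-block peaks lay at 0.1999 of the gene in CHD3 (left out) and 0.2008 in IFFO1 (taken), and at 0.7996 in MPHOSPH8 (taken) and 0.80003 in PLXNB2 (left out). Their fold enrichments were 6.60, 5.77, 6.03 and 3.51, in the same order.

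By the genomic midpoint, multi-block peaks were most common in the interior of the gene. A peak that joins distant blocks takes its midpoint from between them, so position and block number are linked. The shares below were not recomputed with the exonic midpoint. From 10% to 60% of the gene, 57.5%, 61.97%, 56.9%, 59.3% and 58.9% of the peaks in successive steps of 10% had 2 or more blocks. From 60% to 90% the shares were 40.03%, 49.4% and 38.2%. In the first 10% of the gene the share was 19.9%, and in the last 10% it was 17.1%. The highest animal in each of those outer steps, at 27.3% and 20.5%, lay below the lowest animal of every step from 20% to 60%. The outer steps held the most peaks, 1560 in the first and 2455 in the last 10%.

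**Figure D2:**
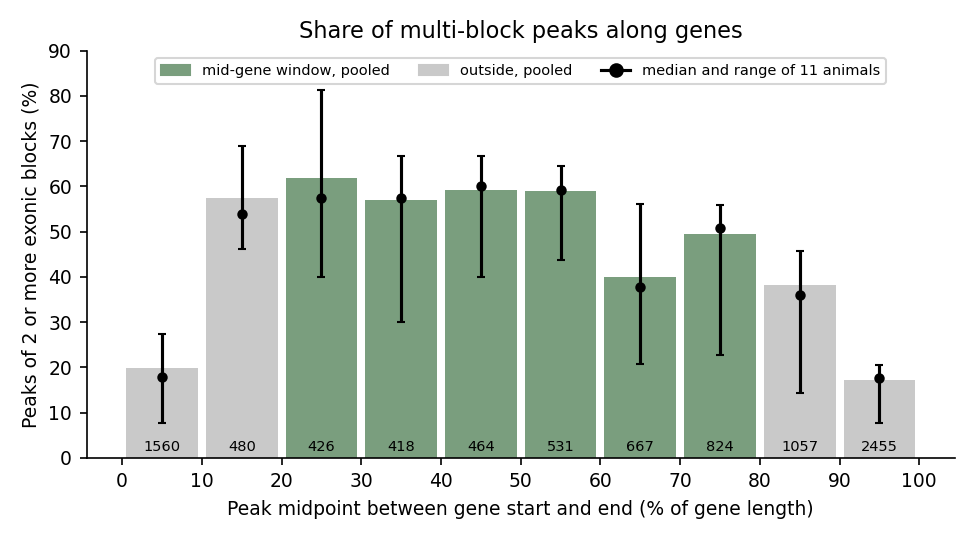
Share of peaks with 2 or more exonic blocks (percent) by position of the genomic midpoint of the peak along the gene, in steps of 10% of gene length. Bars pool all animals, with the number of peaks at their base, and points with bars give the median and range of the 11 animals; the share is 61.97% between 20% and 30% and 17.1% in the last 10%.

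Junction-spanning peaks lay on transcripts with more exons than the mid-gene peaks within 1 block did. The annotated transcript had a mean per-animal median of 14.95 ± 1.98 exons (SD, n = 11 animals) for junction-spanning peaks, over 1543 peaks with an exon annotation. For peaks within 1 block it was 10.2 ± 2.03 exons over 1239 peaks. The median was higher for junction-spanning peaks in 11 of 11 animals, by 2.5 to 8 exons. Their genes were also longer in 10 of 11 animals, with mean medians of 31275 ± 9577 bp against 20791 ± 5881 bp. Exact sign-flip permutation tests, added after seeing the data, gave p = 0.000977 for exon number and p = 0.00195 for gene length (adjusted p = 0.00195 for both over these 2). A transcript with more exons has more junctions to cross, so both measures are tied to the way the peaks were chosen, and the tests are not independent of it. In exonic length, which the rule does not set but to which block number is linked, the per-animal medians averaged 153 ± 15.9 bp against 133 ± 14.3 bp. The difference was 19.7 bp, higher in 10 of 11 animals (exact sign-flip permutation test, two-sided, p = 0.00488, adjusted p = 0.00488 over 4 comparisons within animals). It fell to 8.18 bp (exact p = 0.102) with a window from 0.3 to 0.7.

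Enrichment was lower in junction-spanning peaks than in either kind of peak they were compared with. The fold enrichment of a peak is the authors' own value and ranks peaks only within a list, so each peak was given its percentile in the list of its animal. The median percentile of junction-spanning peaks was 30.7 in A, 40.2 in B, 40.2 in C, 35.2 in C1, 36.7 in C2 and 36.9 in C3. After sevoflurane it was 36.3 in D, 36.3 in F, 36.2 in S1, 39.9 in S2 and 36.1 in S3. All 11 values lay below the 42.8 to 54.1 of mid-gene peaks within 1 block. The means were 36.8 ± 2.71 against 48.5 ± 3.33 (SD, n = 11), a difference of -11.7 percentiles, lower in 11 of 11 animals (exact sign-flip permutation test, two-sided, p = 0.000977, the smallest that 11 animals allow, adjusted p = 0.00195). Peaks beyond 80% of the gene, where the stop codon and 3′ end lie, stood higher still at 53.5 ± 1.97. Junction-spanning peaks lay 16.8 percentiles lower than these, in 11 of 11 animals (exact p = 0.000977, adjusted p = 0.00195).

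The lower rank did not appear within genes. In 65 pairs of a gene and an animal that held both kinds of mid-gene peak, from 0 to 14 pairs an animal, the junction-spanning peak ranked higher in 39 and lower in 25. The mean over 10 animals was 7.33 percentiles higher for the junction-spanning peak, with 7 animals higher and 3 lower (exact sign-flip permutation test, p = 0.232). This comparison was added after seeing the data and holds few genes. Among peaks of like exonic length, 80 to 130 bp, also chosen after seeing the data, the difference was -10.5 percentiles, lower in 9 of 11 animals (exact p = 0.0234). By block number, the pooled median percentile was 35.7 for 2 blocks, 36.9 for 3 and 51.5 for 4 or more, while the median exonic length was 121, 180 and 253 bp.

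**Figure D3:**
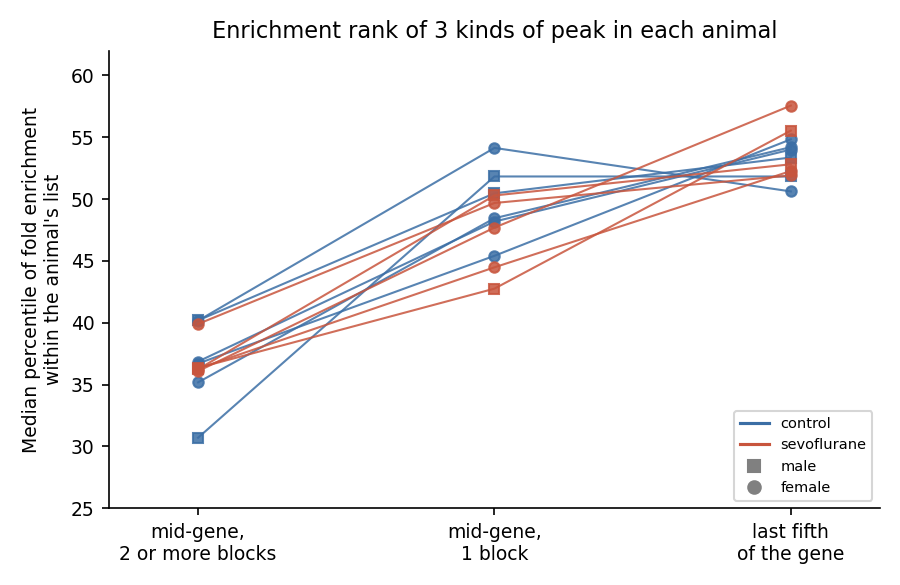
Median percentile of the authors' fold enrichment within the animal's own list for 3 kinds of peak, with 1 line per animal (blue control, red sevoflurane, squares males, circles females). All 11 lines rise from junction-spanning mid-gene peaks (30.7 to 40.2) to mid-gene peaks within 1 block (42.8 to 54.1); the axis does not start at 0.

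Junction-spanning peaks also recurred in fewer animals. A region is the union of peaks of all animals whose exonic blocks overlap on the same strand. On average 51.0% ± 14.99 of an animal's junction-spanning peaks (SD, n = 11) lay in a region with a peak in another animal, against 65.9% ± 10.4 of mid-gene peaks within 1 block. The difference was -14.9 percentage points, lower in 10 of 11 animals (exact sign-flip permutation test, two-sided, p = 0.00195, adjusted p = 0.00260). C1, with the shortest list, was the exception, at 86.2% against 83.3%. Of the 1049 genes, 777 (74.1%) had a junction-spanning peak in 1 animal, 234 in 2 to 5 and 38 in 6 or more. Of the 1692 gaps, 313 (18.5%) were found in at least 2 animals, 53 in at least 6 and 7 in all 11. Among these 7 were the 18 bp gap of HNRNPA0 and a gap of 30 bp in HNRNPA2B1. Of 283 regions with a junction-spanning peak and present in at least 2 animals, 149 had that form in every animal with a peak and 134 in some animals only.

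By the rule, regions in HNRNPA0, FKBP2, HNRNPA2B1 and TSPYL1 had a junction-spanning mid-gene peak in 6 of 6 control and 5 of 5 sevoflurane animals. In HNRNPA0 the only gap was 18 bp, so the label of a junction does not hold there. HNRNPA2B1 encodes an RNA-binding protein that has been described as a nuclear reader of m6A. Its region lay on chromosome 3 from 82014678 to 82018986 (plus strand, rheMac8 assembly). The peaks there joined 5 blocks in C1 and S1, 7 in S3 and 6 in the other animals. Exonic length was 420 bp in A, 450 in B, 480 in C, 360 in C1, 540 in C2 and 540 in C3, and 450 in D, 480 in F, 360 in S1, 450 in S2 and 599 in S3. The same 4 gaps, of 30, 501, 2128 and 234 bp, were spanned in every animal, while the outer ends differed. The percentile of enrichment ran from 31.6 in C1 to 72.0 in C2 among controls and from 29.1 in S1 to 75.9 in S3 after sevoflurane, so the groups overlapped. C1 and S1, with the shortest exonic sequence, also stood lowest in enrichment.

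HNRNPA0 on chromosome 6 (135455542 to 135455947, minus strand) had 239 to 358 bp of exonic sequence on both sides of its 18 bp gap. Its percentile ran from 50.1 to 93.1 in controls and from 54.2 to 82.7 after sevoflurane. TSPYL1, a nucleosome assembly protein-like gene on chromosome 4 (151538418 to 151540433, plus strand), had 3 blocks in every animal and crossed the same gaps of 1012 and 514 bp. FKBP2, a prolyl isomerase of the endoplasmic reticulum, varied most. Its region on chromosome 14 (10283932 to 10285730, minus strand) was covered by 5 blocks in 8 animals, by 4 in B, and by 2 in C2 and S1, and no gap was common to all 11. Exonic length in FKBP2 ran from 91 bp in S1 to 570 bp in D. The groups of 6 and 5 overlapped in enrichment in all 4 genes.

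CHGA encodes chromogranin A, a core protein of neuroendocrine secretory vesicles. It had a junction-spanning peak over 1 gap of 681 bp in 10 animals, on chromosome 7 from 155149134 to 155150384 (plus strand). The percentile was 16.0 in A, 47.0 in B, 8.28 in C, 24.8 in C1 and 53.1 in C3, and 51.0 in D, 59.1 in F, 48.0 in S1, 74.96 in S2 and 58.0 in S3. The sevoflurane values lay in the upper part of the range but overlapped with C3, and no test was made on this gene. C2 had a peak of another form in the region. PABPN1, the nuclear poly(A)-binding protein, ranked near the top of the lists. Its peaks, in 8 animals on chromosome 7 from 84661386 to 84662692 (plus strand), stood at a median percentile of 96.8 and held 449 to 629 bp of exonic sequence in 2 blocks. UBE2K (chromosome 5, 39386426 to 39425233, plus strand) reached percentile 99.8 in S3, with a fold enrichment of 245, the highest among all 1764 peaks.

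CDK11B, a cyclin-dependent kinase tied to transcription and splicing, EWSR1, an RNA-binding protein of the FET family, GNL1, a GTP-binding protein, and ZC3H4, a zinc finger protein that limits non-coding transcription, had the form in 4 controls and all 5 sevoflurane animals each. CDK11B has a close paralog, so its reads may be shared between copies. CHD3, a chromatin remodeller of the NuRD complex, had it in 4 and 4. In GNL1 (chromosome 4, 31252892 to 31253820, minus strand) all 5 sevoflurane peaks joined 3 blocks, over 151 to 301 bp, and all 4 control peaks joined 2, over 91 to 151 bp. The third block there was 11 bp in D, F, S2 and S3 and 41 bp in S1. Peaks of S2 and S3 ranked highest in this region, at percentiles 79.6 and 81.9. In EWSR1 the peaks of D, F, S1 and S2 joined 4 blocks, that of S3 joined 3, and control peaks joined 2 or 3. In ZC3H4 the peaks had 2 to 4 blocks in both groups. Block number was not tested against treatment in any of these genes.

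**Figure D4:**
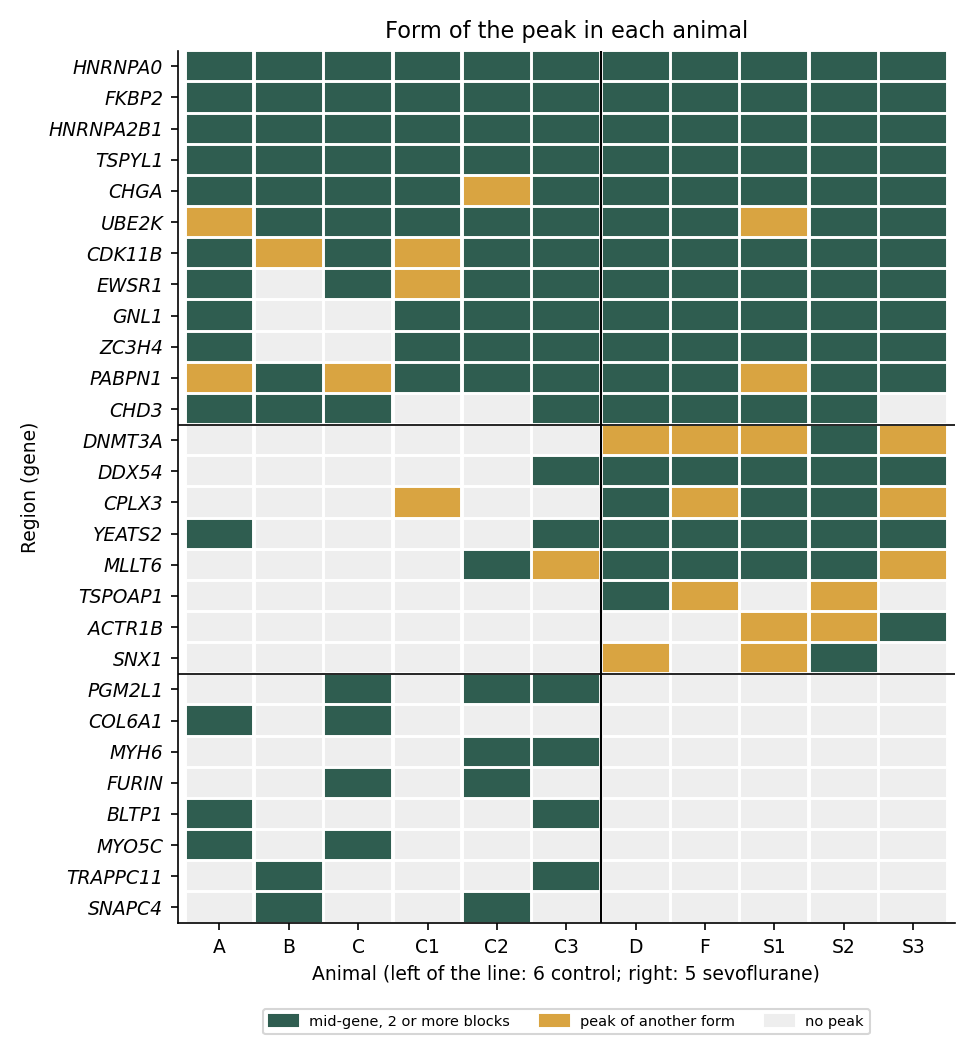
Form of the peak in each of 11 animals (columns, 6 controls left of the line and 5 sevoflurane animals right of it) for 28 regions (rows): those found in most animals on top, then those found more often after sevoflurane, then those found more often in controls. Green is a mid-gene peak of 2 or more blocks, yellow a peak of another form and grey no peak; HNRNPA0, FKBP2, HNRNPA2B1 and TSPYL1 are green throughout, and DNMT3A is green in S2 only.

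Junction-spanning mid-gene peaks were more numerous on average after sevoflurane, a difference that did not pass adjustment. Their share of peaks was slightly higher, by less than the spread between animals. The numbers were 85 in A, 97 in B, 74 in C, 29 in C1, 130 in C2 and 269 in C3, and 190 in D, 170 in F, 146 in S1, 314 in S2 and 260 in S3. All sevoflurane animals except S2 lay below control C3, and all 5 lay above the other 5 controls. The means were 114 ± 82.7 (SD, n = 6) and 216 ± 69.3 (n = 5), a difference of 1.17 on the log2 scale and a ratio of 2.25 (95% interval 1.04 to 4.96). The exact permutation test gave p = 0.0455 (two-sided, 462 splits), and the adjusted p was 0.182 over 8 measures, which does not pass. Genes with such a peak numbered 110 ± 77.1 and 204 ± 61.3, a ratio of 2.19 (exact p = 0.0411, adjusted p = 0.182). Leaving out any 1 animal but C2 or C3 took both p-values above 0.05. Without C1, the difference in number of peaks was 0.835 (exact p = 0.0714).

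List length moved with the group. As a share of placed peaks, junction-spanning mid-gene peaks made up 15.4% in A, 19.9% in B, 17.1% in C, 8.29% in C1, 20.2% in C2 and 23.9% in C3. After sevoflurane they made up 17.9% in D, 15.7% in F, 18.8% in S1, 20.1% in S2 and 22.8% in S3. The means were 17.5% ± 5.36 and 19.1% ± 2.65, a difference of 1.60 percentage points (95% interval -4.09 to 7.60, exact permutation test p = 0.600, adjusted p = 0.797). Without C1 that difference was -0.24 (exact p = 0.905). Of mid-gene peaks, 49.0% ± 9.44 spanned a junction in controls and 53.2% ± 2.93 after sevoflurane (exact p = 0.413). With every list cut to the length of the shortest, the log2 difference in number was 0.168 (exact p = 0.673). Neither share passed the test. The interval for the share of mid-gene peaks ran from -4.87 to 14.7 percentage points, so changes within that interval were not resolved.

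**Figure D5:**
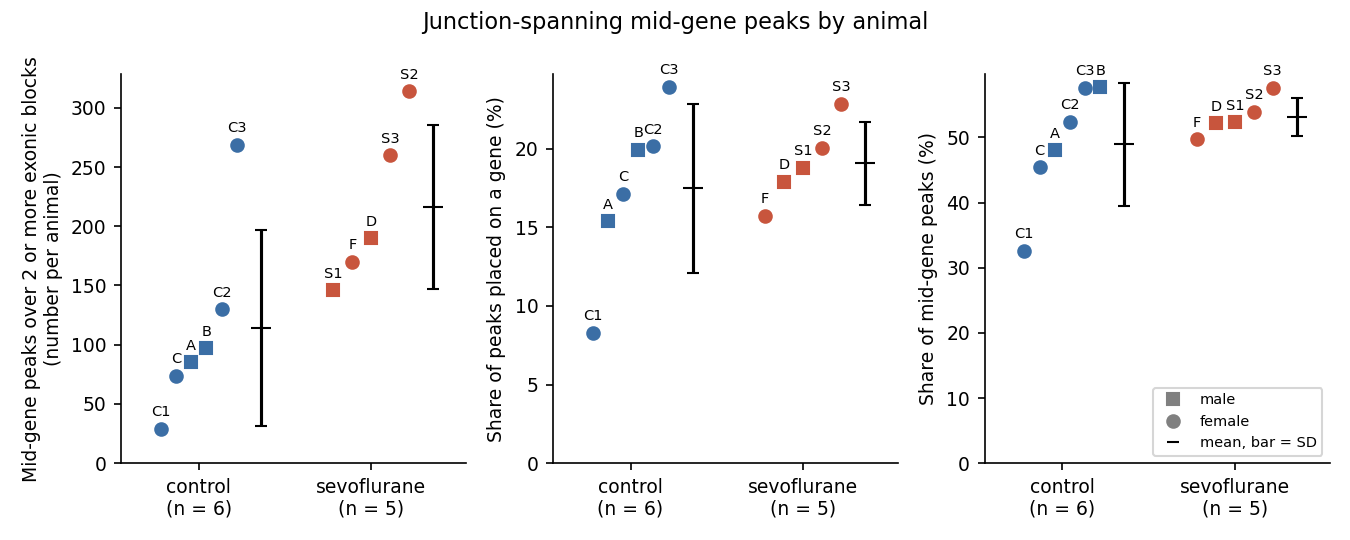
Number of junction-spanning mid-gene peaks per animal (left), their share of placed peaks (middle, percent) and of mid-gene peaks (right, percent), in 6 control and 5 sevoflurane animals. Squares are males, circles females, and bars give the mean ± SD: the numbers average 114 and 216, the shares of placed peaks 17.5% and 19.1%.

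For the form of the peaks, the differences between the groups were also within the spread between animals. Peaks joined a mean of 2.37 ± 0.116 blocks in controls and 2.44 ± 0.132 after sevoflurane (exact permutation test p = 0.418). Median exonic length was 150 ± 19.0 and 156 ± 12.4 bp, a difference of 5.80 bp (95% interval -16.0 to 28.5, exact p = 0.535). The part of the peaks in the 3′ side of the window, at 0.5 of the gene or beyond, was 58.0% ± 7.01 and 56.6% ± 3.55 (exact p = 0.703). Median percentile of enrichment was 36.6 ± 3.54 and 37.0 ± 1.64 (exact p = 0.797). All 4 measures had an adjusted p of 0.797 over the 8 measures. With lists cut to equal length, the mean of the per-animal median lengths was 49.6 bp higher after sevoflurane (exact permutation test p = 0.0130). The mean number of blocks was 0.230 higher (exact p = 0.0411). Neither p-value was adjusted. The cut keeps the peaks of smallest p-value, so C1 keeps its whole list and longer lists keep only their strongest peaks. The part of the cut in these differences was not tested.

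The response to sevoflurane was compared between the sexes. The sevoflurane difference in number of junction-spanning peaks was larger in females than in males by 0.49 on the log2 scale. The exact permutation of sex within treatment did not call it (p = 0.640, 150 relabellings). Without C1 this difference between the sexes was -0.067. The sevoflurane difference in number was 1.37 in females (4 against 3, exact p = 0.143) and 0.875 in males (2 against 2, exact p = 0.333, the smallest possible there being 0.167). A difference in number between females and males, apart from the response, was not tested.

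Single regions gave few calls. Over the whole series, 1265 regions were present in 2 to 9 animals and were tested with Fisher's exact test. At an unadjusted p under 0.05, 1.5% of them were present more often after sevoflurane and 0% more often in controls. Of the 261 tested regions that held a junction-spanning mid-gene peak, 3 (1.15%) were present more often after sevoflurane and 0 more often in controls, a share near that background. None of the 1265 passed adjustment, the smallest adjusted p being 0.610. A higher share of animals after sevoflurane was found in 84.7% of the 261 regions and in 84.7% of all 1265, with a median difference of 23.3 percentage points in both. The 3 regions lay in DNMT3A, DDX54 and CPLX3. The count did not fall below 3 on leaving out any 1 animal, but it rose for some. Leaving out A or D gave 6, C2 gave 5, F gave 8, C3 or S3 gave 10, and S1 gave 12.

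DNMT3A, a de novo DNA methyltransferase, had a peak in each of the 5 treated animals and in no control, which gave p = 0.00216 by Fisher's exact test (adjusted p = 0.610). Together these peaks covered positions 25521333 to 25546388 of chromosome 13 (minus strand). The peak was junction-spanning only in S2, where it joined 3 blocks over 25056 bp with 330 bp of exonic sequence. In D, F, S1 and S3 the peak was 1 block of 120 to 150 bp at 0.407 to 0.408 of the gene. DDX54, a DEAD-box RNA helicase, was the region in which every peak had the form. Its peaks joined 4 blocks in C3, D, S2 and S3 and 3 in F and S1, on chromosome 11 from 113190560 to 113193094 (minus strand). Their percentile was 85.1 in C3, the only control with one, and 91.0 in D, 68.8 in F, 65.1 in S1, 74.7 in S2 and 97.2 in S3 (Fisher's exact p = 0.0152, adjusted p = 0.610). CPLX3, a complexin that regulates fusion of synaptic vesicles, had a peak in C1 and in all 5 sevoflurane animals (exact p = 0.0152, adjusted p = 0.610), on chromosome 7 from 52049654 to 52053031 (plus strand). The peaks of D, S1 and S2 had 3 blocks at 0.329 to 0.454 of the gene. Those of F and S3 were single blocks of 90 bp at its start, and the control peak of C1, of 2 blocks, lay at 0.150. These positions are not on 1 scale, because the gene ends given with the peaks differed. The peaks of D and S2 both ended at 52053031 and began at 52049714 and 52049654, yet stood at 0.454 and 0.329. Their first blocks held 194 of 298 and 254 of 358 exonic bp, and covered the single blocks of F and S3.

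The next regions missed the unadjusted threshold (Fisher's exact p = 0.0606 each). YEATS2, a histone acyl-lysine reader, had a junction-spanning peak of 2 blocks in A, C3 and all 5 sevoflurane animals. MLLT6, a leukaemia fusion partner gene, had the form in C2, D, F, S1 and S2 and crossed an 18 bp gap in 5 animals. In S1 that gap was the only one, so the label of a junction does not hold for its peak. Regions in TSPOAP1, a synaptic scaffold protein, ACTR1B, a dynactin subunit, and SNX1, a sorting nexin, were present in 3 sevoflurane animals and 0 controls. Each of these regions had the form in 1 animal. Over all its regions, TSPOAP1 had the form in 2 controls and 2 sevoflurane animals. In the opposite direction, PGM2L1, an enzyme that makes glucose 1,6-bisphosphate, had a junction-spanning peak in C, C2 and C3 and in 0 sevoflurane animals (Fisher's exact p = 0.182). Its percentile was low, at 0.207, 15.1 and 23.0. A further set of regions was found in 2 controls and 0 sevoflurane animals each (Fisher's exact p = 0.455 each). They lay in COL6A1, a collagen VI chain, MYH6, a myosin heavy chain with a close paralog, and FURIN, a proprotein convertase. The others lay in BLTP1, MYO5C, an unconventional myosin, TRAPPC11, a trafficking complex subunit, and SNAPC4, a subunit of the snRNA-activating complex. Over all its regions, MYO5C had the form in 3 controls and 0 sevoflurane animals.

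The 5 peaks of 7 or 8 blocks came from 5 genes, HNRNPA2B1 among them. COL6A2, a collagen VI chain, had a peak of 8 blocks in S2, with 361 bp of exonic sequence over 3312 bp on chromosome 3 (651455 to 654766, minus strand) and a percentile of 94.4. The same region held 5 blocks and 181 bp in C and 4 blocks and 121 bp in B. ADAM11, a membrane protein of the disintegrin family, had 7 blocks in F and 3 to 5 in 6 other animals. COL9A1, a collagen IX chain, and DNMT1, the maintenance DNA methyltransferase, had 7 blocks in S2. By genomic span, FBXL17 reached 163967 bp in C3 and COL4A2, a basement membrane collagen, 117705 bp in S2. HSD17B12, a fatty acid elongation enzyme, spanned 113750 bp in C3 and had the form in 7 animals, all across a gap of 71477 bp. In C, D, F, S2 and S3 a block of 160 bp on the gene-start side held most of its 176 to 205 exonic bp. The place of those peaks in the mid-gene window rests on the genomic midpoint. AAK1, a kinase of the endocytic adaptor complex, reached 98846 bp in C3. The percentile of enrichment was 35.0 for FBXL17 and 85.1 for HSD17B12 in C3.

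Gene groups differed in how many of their members carried the form. Of all genes with a symbol and a placed peak, 1034 of 3336 (31.0%) had a junction-spanning mid-gene peak in at least 1 animal. In the list of the ubiquitin system the count was 13 of 16, led by HERC2, a large ubiquitin ligase, in 8 animals. Of translation factors it was 6 of 7, with EIF3C, a subunit of initiation factor 3 that has a close copy, in 5 animals. Of chromatin regulators it was 23 of 37 (62.2%), with CHD3 in 8 animals, CHD5, a neuronal remodeller, in 5, and KMT2D, a histone H3 lysine methyltransferase, and SMARCC2, a BAF subunit, in 4 each. Of molecular motors it was 13 of 23, with MYH14 and MYO18A, both myosins, in 3 animals each. Annotated transcripts of these 4 lists had medians of 21, 21.5, 28 and 29 exons, against 12 over all genes with a symbol and an exon number. Voltage-gated channels had 30, cell adhesion 24, and presynaptic release and postsynaptic scaffolds 20 each. The part of exon number in the counts was not tested.

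The counts of the other lists were small. Splicing factors counted 6 of 16 (37.5%), with SF1, the branch point binding protein, in 3 animals. Voltage-gated channels counted 7 of 20 (35.0%), kinases 7 of 22, the cytoskeleton 7 of 21 with PLEC, the cytolinker plectin, in 8 animals, and axon guidance 5 of 15. Presynaptic release genes counted 6 of 26 (23.1%). Postsynaptic scaffolds counted 2 of 13 (15.4%), with CAMK2A, the alpha subunit of CaM kinase II, in 3 animals and SHANK1, a scaffold protein, in 1, although SHANK1 had a peak of some kind in all 11. Glutamate receptors counted 1 of 8, GABA signalling 1 of 5 and cell adhesion 1 of 17 (5.88%). In exon junction complex and decay 2 of 7 had the form, in ribosomal proteins 1 of 3, in glycolysis 2 of 7, in the respiratory chain 1 of 3, in ion pumps 2 of 9 and in chaperones 3 of 7 (42.9%). GTPase regulators counted 4 of 18. Per animal, the largest count among the lists was that of chromatin regulators after sevoflurane, with a mean of 6.20 genes (3 to 10), against 2.33 in controls (0 to 8). List length moved with it, and its part was not tested. Over all genes with the form the means were 204 after sevoflurane and 110 in controls. For molecular motors they were 2.40 and 1.17, for the ubiquitin system 2.60 and 2.33, and for translation factors 1 and 1.

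The list of the m6A machinery held 27 names, of which HNRNPG and RBMX stand for the same gene, without a peak. Of these names, 11 had a placed peak and 2 had the form. They were HNRNPA2B1 in 11 animals and ZC3H13, a writer complex subunit, in 1 sevoflurane animal out of 10 animals with any peak. No marker gene of neurons, oligodendrocytes, astrocytes, microglia, endothelium or choroid plexus had a junction-spanning mid-gene peak. Few of them had any peak: RBFOX3, the neuronal nuclear antigen NeuN, had one in 7 animals and CNP, a myelin enzyme, in 6, while SNAP25, GFAP and all 5 endothelial markers had none. These peaks say nothing of the RNA level of the markers, so the labelled tissue could not be checked from them.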

How the data were processed

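Prefrontal cortex RNA of 11 animals was analysed by m6A-seq, with 1 peak table per immunoprecipitated sample; the 11 input libraries were not analysed here. Per the submitters' processing notes, Trim Galore 0.5.0, cutadapt, HISAT2 2.1.0 and StringTie were used, and the assembly was rheMac8. Neither the peak caller nor the use of the inputs as background is given in the sources used here. Each row of the deposited tables is 1 peak with its exonic blocks, gene, a p-value, log10 values of p and of the false discovery rate given as negative scores, and a fold enrichment (a ratio), per the file headers. All are the authors' own. Starts count from 0, so 1 was added to printed starts. No read counts accompany the tables, so depth is unknown, no interval for counting error was computed, and precision rests on the number of animals.

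Position was the genomic midpoint of the peak between the ends of its gene, turned on the minus strand. The gene ends were those given with each peak, and they could differ between peaks of the same gene, as in CPLX3. Symbols of 986 of 1049 genes came from a table of gene names and 48 from the peak tables, and 15 had none. Regions joined same-strand peaks that shared 1 bp or more of exonic sequence, and printed regions run from the first to the last base. A largest Jaccard index of 0.177 between the region sets of any pair of animals gave no sign of a library deposited more than once.

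Groups followed the treatment label, with the animal as the replicate. Group measures were tested with two-sided exact permutation tests over 462 splits (smallest p = 0.00216), with 95% intervals by inversion of the test. Kinds of peak were compared within animals by exact sign flips (2048). Regions were tested with Fisher's exact test. P-values were adjusted by the Benjamini-Hochberg method over 8 group measures, over 4 comparisons within animals and over all 1265 regions.

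The members, the 28 gene lists and the tests were chosen with earlier results of these data known, so lists are described by counts only. Named regions are up to 12 found in this form in most animals, up to 8 in each direction by Fisher's p, up to 5 peaks with most blocks and up to 5 regions of longest span, all with a symbol, and list members found in most animals, apart from a few genes not reported here. Alternatives were autosomes only, a stricter p-value (1e-05) for each peak, windows from 0.1 to 0.9 and 0.3 to 0.7, blocks under 10 bp not counted, lists of equal length, strata, 50% reciprocal overlap, no filter on the number of animals, and leaving out each animal. Chosen after seeing the data were gaps under 30 bp not counted, the exonic midpoint, leaving out C1 and C3 together, genes with both kinds of peak, and peaks of 80 to 130 bp. A comparison of the density of the GGAC motif was not made, because no genome of this build was used here, and no sequence is shown. The tests were checked on simulated lists. Python 3.11.15, pandas 2.3.3, NumPy 2.4.6, SciPy 1.17.1 and matplotlib 3.10.9 were used.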

Additional observations from a re-analysis of the deposited data

Results flagged for a closer look

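In 20 sets of 5 or 6 animals examined for a sample far from the others, 3 stood out, and chance gives about 1 in 20. Among sevoflurane animals, S2, which has the longest list, had a median exonic length of 178 bp in its junction-spanning mid-gene peaks, against 149 to 151 bp in the others. S2 also had a median percentile of enrichment of 39.9, against 36.1 to 36.3 in the others. Among controls, C1, which has the shortest list, had a mean exonic length of 257 bp over its 29 peaks, against 150.2 to 165 bp, and 1 of the 29, of 2 blocks in a gene without a symbol, held 1395 bp. The part of list length in these values was not tested.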

How the results depend on the processing

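Of 330 recomputed values, 280 kept their direction and their side of the threshold (1 of them at a difference of 0) or, for counts, stayed within 1.5 times. The cause of the 50 changes was not tested. In 12 the sign turned, 11 of them differences that passed no test under either setting. The lower enrichment of junction-spanning peaks against mid-gene peaks within 1 block turned to 7.33 percentiles higher within genes that held both kinds (exact p = 0.232). In the comparisons within animals, 81 of 82 values kept their sign; the exonic length difference fell below the threshold at 8.18 bp (window 0.3 to 0.7), 11.05 bp (lists of equal length) and 10.7 bp (exonic midpoint). With lists of equal length, the log2 difference was 0.168 for the number of peaks and 0.139 for genes, while blocks differed by 0.230 and exonic length by 49.6 bp. Treatment permuted within sex left the number at 1.17 (exact p = 0.0524), and the exonic midpoint gave 1.07 for genes (exact p = 0.0519). The 3′ side difference (-1.40 points) became 0.17 at a p-value of at most 1e-05, 1.25 in the window 0.1 to 0.9, and -3.12 to 0.78 on leaving out 1 animal. The difference in enrichment percentile (0.34) became -0.37 on autosomes, -0.62 in the window 0.3 to 0.7, -0.45 without gaps under 30 bp, -0.10 by the exonic midpoint, and -0.85 to 1.05 on leaving out 1 animal. Leaving out 1 animal also gave -0.24 to 2.89 points for the share of placed peaks. For the female minus male difference in the response of the number, it gave -0.067 to 1.004. With the replicate block, in which animals of the same number form a block, the difference in number was 1.17 (exact p = 0.0250), and no call changed. The labels give C1 to C3 and S1 to S3 only like numbers, and the overlap of regions was highest with the same number for 2 of 3 controls, so no pairing was assumed. Leaving out 1 animal gave 0.835 to 1.48 for the number and 0.806 to 1.43 for genes. The 3 regions found more often after sevoflurane became 6 (window 0.1 to 0.9), 1 (equal length), 1 (50% reciprocal overlap), 10 (without C1 and C3) and 3 to 12 (leaving out 1 animal), and the count in controls was 0 throughout. With unknown depth, an absent peak is not an absent mark.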

Other observations

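Among the 38 genes with a junction-spanning mid-gene peak in at least 6 animals were some not yet described, picked here after their values were seen. SFPQ, a splicing factor of paraspeckles, had the form in 6 animals at a median percentile of 14.1. CHTOP, an mRNA export factor, stood at 69.8 in 6 animals. ZFTA, a zinc finger gene, stood at 95.7 in 6 animals, and DRAP1, a transcriptional repressor subunit, at 12.4 in 7.

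Some genes had several such peaks at once. CDK11B had 19 junction-spanning mid-gene peaks in 3 regions over 9 animals, GNL1 15 in 2 regions over 9, and HERC2 12 in 3 regions over 8. CHD5 had 8 peaks in 5 regions over 5 animals. In 73 pairs of a gene and an animal there were at least 2 such peaks, up to 4 in 1 gene.

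A peak of PLEC in F had the greatest exonic length, 1678 bp in 2 blocks. PLEC had a junction-spanning peak in 4 controls and 4 sevoflurane animals, at a median percentile of 50.04.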
